A study of Mus musculus with 9 samples.

Results

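Mitochondrial ribosomal protein genes encode the protein subunits of the mitoribosome, the ribosome inside mitochondria. They were chosen by symbol, as the rows of the deposited expression table that begin with Mrpl or Mrps and a number. Of 20512 gene symbols in the table, 76 were taken by that rule, 47 with an Mrpl symbol and 29 with an Mrps symbol. None of the 76 stood at 0 in every library, and all 76 passed the floor for testing, a mean log2 value of at least 3 over the libraries. The rule used no measured value. The symbols are not an exact list of subunits: the products of Mrps18a and Mrps30 lie in the large subunit, and the product of Mrps36 belongs to the oxoglutarate dehydrogenase complex of the citric acid cycle. By location, 49 of the genes encode large subunit proteins and 26 encode small subunit proteins.

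RNA from whole mouse tongue was sequenced in 9 libraries. The transgene group held 4 libraries from mice with K14-rtTA and TREFLBmi-1, in which an inducible Bmi1 transgene is switched on through the keratin 14 promoter, active in the basal layer of stratified epithelium. The control group held 5 libraries from mice with K14-rtTA ONLY. All mice were about 6 weeks old, came from C57/Bl6 crossed with FVB/NJ, and received doxycycline at 2 mg/mL in the drinking water for 1 week, so the activator and the drug were shared by both groups. The transgene acts in epithelium while the RNA came from the intact organ, which is largely striated muscle. Whether each library stands for a separate mouse is not stated in the labels, and the spread behind every p-value is therefore the spread between libraries, which may be technical.

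The mitoribosome reads the few messages made from mitochondrial DNA, which encode core subunits of the respiratory chain and of ATP synthase. Its RNAs come from mitochondrial DNA, but all of its proteins are encoded in the nucleus, made in the cytosol and imported. Many subunits have a counterpart in bacterial ribosomes, and others were added in the mitochondrial lineage. Promoters of this gene family often hold sites for NRF1, for the ETS factor GABP and for YY1, nuclear factors known to act on mitochondrial genes. Muscle is rich in mitochondria, and the family is expressed in most cell types.

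Promoters are shown first because the genes lay close together in their differences between the groups. RefSeq promoter sequences (build GRCm38.p6, 250 bases before to 50 after the start) matched 67 of the 76 genes with 73 promoters. The 5 printed below, each 300 bases read 5′ to 3′ on the strand of the gene, belong to the 3 genes with the most negative differences among those with a single promoter in the table (Mrps24, Mrpl52 and Mrps18c), to Mrpl39, which has the most negative difference among those that hold the NRF1 motif, and to Mrps2, which has the most positive difference among the genes with a single promoter in the table. Capitals mark 3 motifs searched on both strands, CGCATGCG for NRF1, CCGGAAG for ETS factors (CTTCCGG on the other strand) and AAGATGGC for YY1, and these letters did not overlap one another in the printed stretches.
Mrps24: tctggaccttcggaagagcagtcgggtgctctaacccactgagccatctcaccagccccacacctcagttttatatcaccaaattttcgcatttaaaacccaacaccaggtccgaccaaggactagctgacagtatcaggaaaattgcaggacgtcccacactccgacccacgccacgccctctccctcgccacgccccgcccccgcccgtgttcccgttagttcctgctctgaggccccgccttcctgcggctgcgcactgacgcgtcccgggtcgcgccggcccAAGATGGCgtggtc
Mrpl52: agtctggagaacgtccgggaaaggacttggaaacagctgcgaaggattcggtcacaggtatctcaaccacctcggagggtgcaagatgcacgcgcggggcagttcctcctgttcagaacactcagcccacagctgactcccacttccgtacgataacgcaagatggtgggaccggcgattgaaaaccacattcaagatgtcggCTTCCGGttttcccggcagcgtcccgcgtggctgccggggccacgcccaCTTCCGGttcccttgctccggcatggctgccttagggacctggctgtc
Mrps18c: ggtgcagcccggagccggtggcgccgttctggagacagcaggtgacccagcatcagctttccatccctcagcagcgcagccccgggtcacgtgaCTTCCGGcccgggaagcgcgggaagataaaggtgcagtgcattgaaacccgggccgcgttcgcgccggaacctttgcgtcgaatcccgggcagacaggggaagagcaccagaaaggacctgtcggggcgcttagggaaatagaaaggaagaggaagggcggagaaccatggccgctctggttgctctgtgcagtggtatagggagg
Mrpl39: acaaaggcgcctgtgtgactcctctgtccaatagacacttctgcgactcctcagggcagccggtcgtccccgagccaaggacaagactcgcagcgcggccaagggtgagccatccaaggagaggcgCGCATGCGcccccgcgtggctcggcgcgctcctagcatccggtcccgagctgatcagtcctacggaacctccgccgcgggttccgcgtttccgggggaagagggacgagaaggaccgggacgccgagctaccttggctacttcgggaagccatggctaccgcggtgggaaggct
Mrps2: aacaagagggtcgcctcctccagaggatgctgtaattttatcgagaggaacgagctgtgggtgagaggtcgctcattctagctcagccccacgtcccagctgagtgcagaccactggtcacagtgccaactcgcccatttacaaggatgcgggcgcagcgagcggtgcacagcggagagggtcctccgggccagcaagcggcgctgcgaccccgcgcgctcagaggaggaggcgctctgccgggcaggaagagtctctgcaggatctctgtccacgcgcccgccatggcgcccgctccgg
The Mrps24 promoter is chr11:5707652-5707951 (minus strand), and that of Mrpl52 is chr14:54426659-54426958 (plus strand). The Mrps18c promoter is chr5:100798509-100798808 (plus strand). The promoters of Mrpl39 and Mrps2 are chr16:84735195-84735494 (minus strand) and chr2:28467816-28468115 (plus strand).

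The ETS letters were found in 24 of the 73 promoters (32.9%), against 8.86% of all 32851 promoters in the table. The YY1 letters were found in 12 (16.4%), against 2.75% of all promoters, and the NRF1 letters in 7 (9.59%), against 1.87% of all promoters. At least 1 of the 3 motifs was present in 36 promoters of the family (49.3%), against 12.6% of all promoters. The CCAAT box, searched as CCAAT, was present in 41.1% of the family's promoters, against 37.4% of all promoters, TATAAA in 6.85%, against 13.6% of all promoters, and the E-box CACGTG in 9.59%, against 7.15%. The family's promoters had a median GC content of 58.3%, against 52.7% for all promoters. None of the 3 marked motifs was found in the Mrps2 promoter. In Mrpl52 both ETS matches lay near the start, beginning 47 bases before it and at base 3 counted from it, while in Mrps24 the YY1 match began at base 37 counted from the start. Presence of a motif went with little difference in the readout: the median difference was -0.14 over the 24 genes with the ETS letters and -0.13 over the 43 without them. It was -0.15 over the 12 genes with the YY1 letters and -0.13 over the 55 without them, and -0.15 over the 7 genes with the NRF1 letters and -0.13 over the 60 without them. A match is a description of letters and not a measured binding site.

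The deposited values are log2 normalized expression and hold no read counts, so the depth behind each library is unknown. A difference is transgene minus control on the log2 scale. The values hold no variation between 3 sets of libraries beyond the group means, and these sets are called strata here. Stratum 1 holds transgene replicate 1 and control replicate 1, stratum 2 holds the other 3 transgene libraries with control replicates 2 and 3, and the remaining controls, replicates 4 and 5, make up stratum 3. No label says what the strata stand for. Within each stratum the departures of the libraries from their group means cancel out. In stratum 1, a transgene library above its group mean goes with a control library equally far below its own. Library values, overlaps between groups, SDs and differences within strata given below come from these linked values and are not independent observations. Differences were tested with limma with terms for group and stratum over all 14490 tested genes, and a gene was called at a Benjamini-Hochberg adjusted p under 0.05. The same test with group as the only term, called the group-only fit, is given beside it, although it counts 7 residual degrees of freedom where 5 exist. The induced gene, Bmi1, was at 12.49, 12.05, 14.87 and 11.94 in transgene replicates 1 to 4, against 10.21 to 10.74 in the control libraries, a difference of 2.44. Its limma adjusted p was 0.0672 with stratum terms, and the exact two-sided permutation p was 0.00794 over all libraries and 0.05 within strata, each the smallest that the design allows. All 12 defining markers of skeletal muscle and all 9 of oral keratinocytes passed the floor for testing.

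Mean values of mitoribosome transcripts were slightly lower in transgene tongues for nearly the whole family, without a call for any single gene in the fit with stratum terms. The difference was negative for 74 of the 76 genes, with a median of -0.13, a ratio of 0.911, and a range from -0.28 for Mrpl54 to 0.05 for Mrpl19. Among all 14490 tested genes, 49.0% were negative and the median was 0.0028. The differences were small: 8 genes were lower by more than 0.20, 47 by 0.10 to 0.20 and 19 by less than 0.10. In bulk tissue, fewer cells of a type and less RNA per cell cannot be told apart.

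No single gene of the family passed the adjusted threshold in limma with stratum terms. The number called was 0 lower and 0 higher, against 1.15% of all tested genes called lower and 0.511% called higher. The lowest adjusted p was 0.0806, for Mrps26 and Mrpl54, and 9 of the 76 lay under 0.1. At an unadjusted p under 0.05 the fit held 42 genes of the family lower and 0 higher, against 11.8% of all tested genes lower and 11.2% higher. In the group-only fit 42 genes of the family were called lower and 0 higher, against 12.7% and 11.7% of all tested genes.

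**Figure D1:**
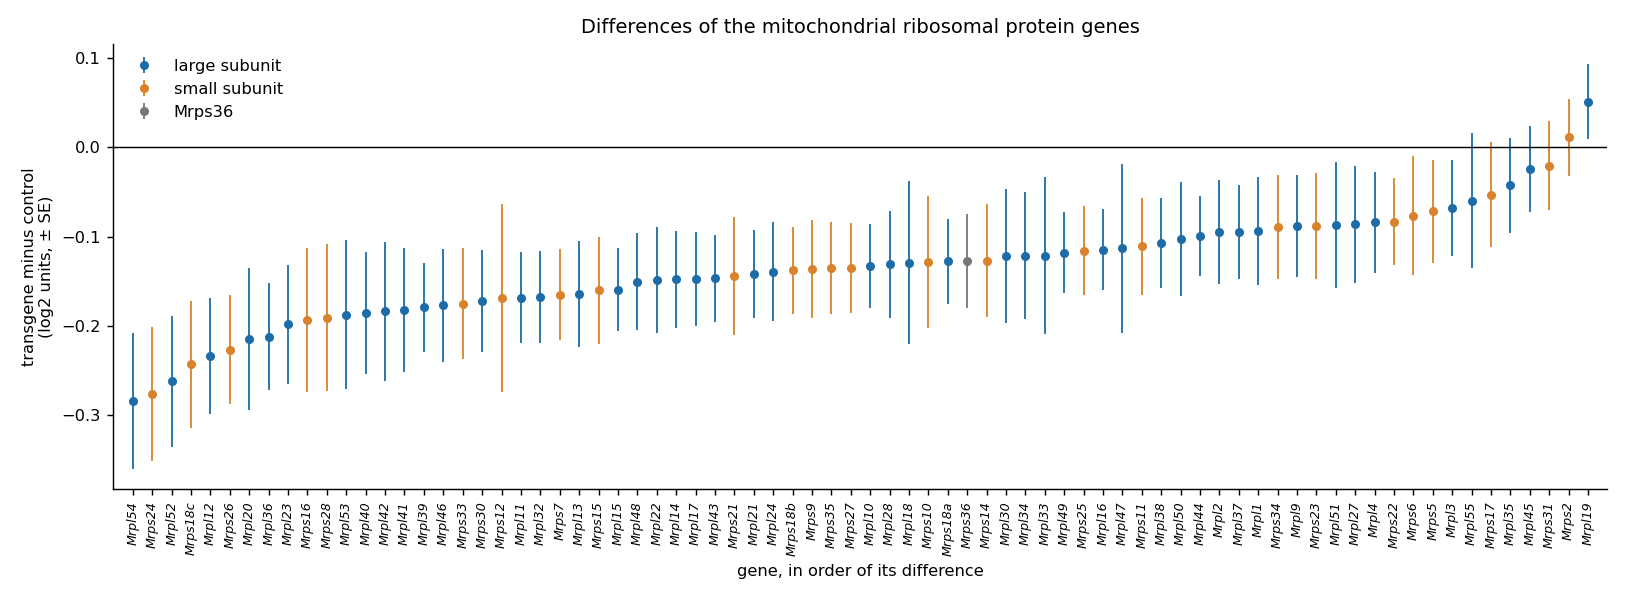
Differences of all 76 genes, transgene minus control in log2 units (vertical axis, bars ± SE of the limma fit with stratum terms), in order along the horizontal axis and coloured by subunit. Large and small subunit genes are mixed along the order, from -0.28 for Mrpl54 to 0.05 for Mrpl19, and 74 points lie below 0.

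Averaged over the 76 genes, the level was 10.03 ± 0.063 (SD, n = 4) in the transgene libraries and 10.16 ± 0.050 (SD, n = 5) in the control libraries. The transgene libraries stood at 10.11, 10.02, 10.03 and 9.96 for replicates 1 to 4, against 10.08, 10.21, 10.19, 10.17 and 10.16 for control replicates 1 to 5. Transgene replicates 2, 3 and 4 lay below every control library, while transgene replicate 1 lay above control replicate 1, so the groups overlapped. Control replicate 1 was the low library of its group, with 73 of 76 genes below the control mean. Its low values mirror the high values of transgene replicate 1 and are not a separate observation. Gene by gene, all 4 transgene libraries lay below all 5 control libraries for 29 genes of the family, against 11.6% of all tested genes. All 4 lay above all 5 for 1 gene of the family, Mrpl19, against 1414 of the 14490 tested genes.

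The genes with the smallest p-values came from both subunits. Mrps26, a small subunit protein with no bacterial counterpart, was at 9.85, 9.69, 9.77 and 9.71 in transgene replicates 1 to 4, against 9.89, 10.06, 9.99, 10.01 and 9.95 in control replicates 1 to 5. All transgene libraries lay below all control libraries, with replicates 1 of the groups closest. The difference was -0.23 (SE 0.061, limma adjusted p 0.0806 with stratum terms and 0.00641 group-only).

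Mrpl54, a large subunit protein specific to mitochondria, was at 10.18, 10.01, 10.06 and 9.94 in transgene replicates 1 to 4, against 10.20, 10.48, 10.31, 10.35 and 10.31 in control replicates 1 to 5. The groups did not overlap, and the difference of -0.28 (SE 0.076, a ratio of 0.822) was the most negative of the family. Mrps24, the counterpart of bacterial S3 at the messenger RNA entry of the small subunit, was at 10.15, 9.92, 10.08 and 9.93 in transgene replicates 1 to 4, against 10.16, 10.37, 10.34, 10.33 and 10.25 in control replicates 1 to 5. Again replicates 1 of both groups were the nearest pair, and the difference was -0.28 (SE 0.075, limma adjusted p 0.0828 with stratum terms).

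Mrpl12, the counterpart of the bacterial L7/L12 stalk protein that contacts translation factors, was at 11.85, 11.67, 11.74 and 11.66 in transgene replicates 1 to 4, against 11.85, 12.03, 12.02, 11.97 and 11.96 in control replicates 1 to 5. Here transgene replicate 1 stood at the level of control replicate 1, so the groups met there, and the difference was -0.23 (SE 0.065). Mrpl52, specific to the mitochondrial large subunit and the gene with a pair of ETS matches above, was at 9.74, 9.57, 9.56 and 9.54 in transgene replicates 1 to 4, against 9.73, 9.96, 9.90, 9.92 and 9.80 in control replicates 1 to 5. Transgene replicate 1 was again level with control replicate 1, and the difference was -0.26 (SE 0.073). Mrps18c, the paralogue that takes the place of bacterial S18, was at 9.32, 9.23, 9.15 and 9.14 in transgene replicates 1 to 4, against 9.35, 9.55, 9.47, 9.38 and 9.53 in control replicates 1 to 5. Its groups did not overlap, and the difference was -0.24 (SE 0.071).

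Mrpl36, counterpart of the smallest bacterial large subunit protein, differed by -0.21 (SE 0.060) and its groups did not overlap, with 9.43 to 9.62 in transgene libraries and 9.69 to 9.81 in control libraries. Mrpl39, specific to mitochondria, differed by -0.18 (SE 0.050), with 9.55 to 9.66 in transgene libraries and 9.72 to 9.82 in control libraries. Mrpl15, counterpart of bacterial L15, differed by -0.16 (SE 0.046), with 10.81 to 10.89 in transgene libraries and 10.93 to 11.02 in control libraries. For Mrpl39 and Mrpl15 the SDs were small, at 0.049 and 0.041 in transgene libraries and 0.038 in control libraries for both. The authors' deposited table of their own comparison lists 6 genes of the family, all lower, of 981 genes in all. It lists 2.69% of all symbols as lower. In the authors' deposited table the log2 fold changes were -0.33 for Mrpl54 (adjusted p 0.0170), -0.32 for Mrpl52, -0.28 for Mrps26, -0.30 for Mrps24, -0.26 for Mrpl12 and -0.26 for Mrpl36 (adjusted p 0.0472).

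At the other end of the order stood 4 genes near 0. Mrpl19, counterpart of bacterial L19 at the subunit interface, was at 9.96, 9.94, 9.92 and 9.95 in transgene replicates 1 to 4, against 9.87, 9.90, 9.90, 9.88 and 9.90 in control replicates 1 to 5. Its groups did not overlap, in the direction opposite to the rest, but the difference of 0.05 was within the error of the fit (95% interval -0.04 to 0.15, limma adjusted p 0.492). Mrps2, counterpart of bacterial S2, differed by 0.01 (95% interval -0.08 to 0.11), with 9.86 to 9.91 in transgene libraries and 9.86 to 9.90 in control libraries. Mrps31, specific to the mitochondrial small subunit, differed by -0.02 (95% interval -0.13 to 0.09). Mrpl45, which lies at the exit of the peptide tunnel and holds the ribosome to the inner membrane, differed by -0.02 (95% interval -0.13 to 0.08). For both, the groups overlapped over most of their range.

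**Figure D2:**
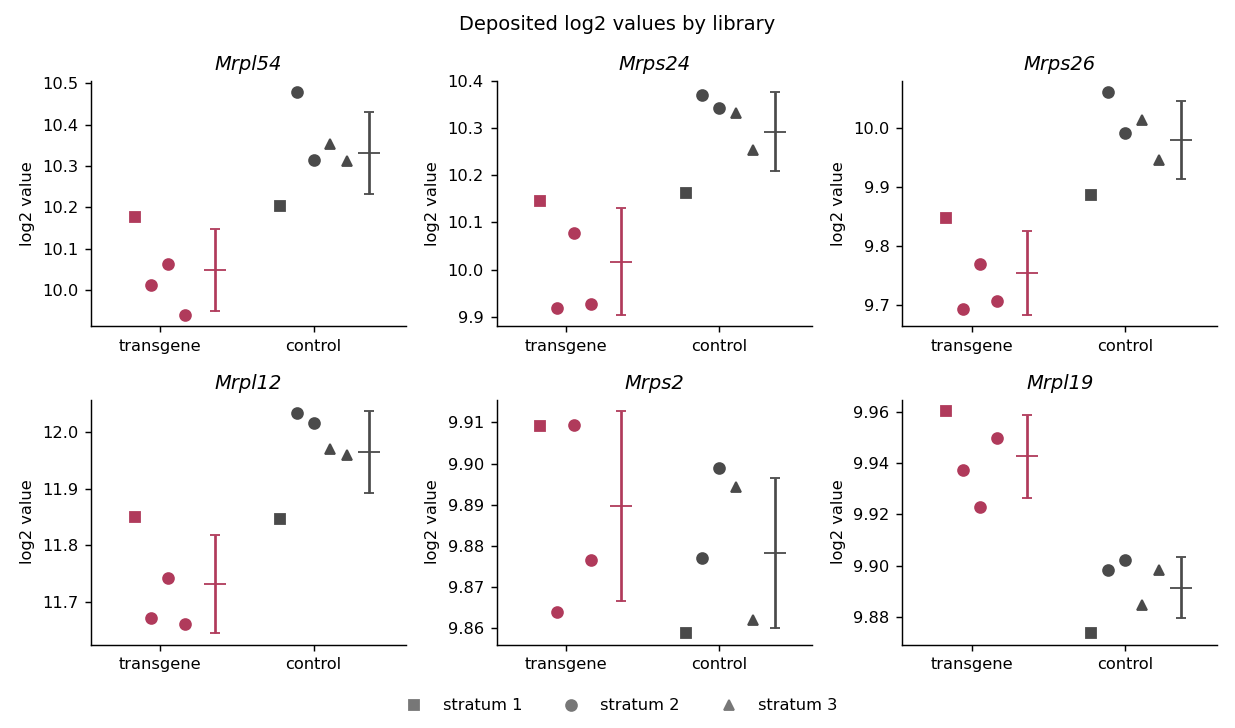
Deposited log2 values (vertical axes, each with its own range) of 6 genes in the 4 transgene libraries (left of each panel) and the 5 control libraries (right), with the symbol shape giving the stratum and the bar giving mean ± SD. In Mrpl54, Mrps24, Mrps26 and Mrpl12 the libraries of stratum 1 (squares) stand close together between the other transgene and control libraries, and in Mrpl19 the transgene libraries stand above the control libraries by about 0.05.

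Both subunits had similar medians. The 28 large subunit genes listed with a bacterial counterpart had a median difference of -0.13, and the 21 listed as specific to mitochondria had -0.15. The division is approximate. Mrpl47, which has a bacterial relative, and the S18 paralogue Mrps18a were counted among the 21, while the paralogue Mrps18b was counted among the conserved small subunit genes. The 17 small subunit genes with a bacterial counterpart had a median of -0.14, and the 9 specific to mitochondria had -0.12. Each of the 4 classes held 0 called genes in limma with stratum terms. In that order they held 15, 13, 8 and 5 genes lower at an unadjusted p under 0.05, and 15, 14, 7 and 5 genes called lower in the group-only fit. Over all tested genes the shares were 11.8% and 12.7%. The spread within a class, for example from -0.28 to 0.01 among conserved small subunit genes, was wider than the spread between the medians.

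Members with well known functions had differences from -0.07 to -0.19, apart from those described above. Mrps12, which lines the decoding centre and whose bacterial counterpart carries mutations that give streptomycin resistance, was at 9.27, 9.18, 9.21 and 8.86 in transgene replicates 1 to 4, against 9.16, 9.45, 9.30, 9.34 and 9.26 in control replicates 1 to 5. Transgene replicate 4 was the low library, the groups overlapped, and the difference of -0.17 had the largest SE of the family (0.105). Mrps16 and Mrps22, both linked in humans to inherited defects of mitochondrial translation, differed by -0.19 (SE 0.081) and -0.08 (SE 0.049). Mrpl3 and Mrpl44, linked in humans to inherited cardiomyopathy, differed by -0.07 (SE 0.054) and -0.10 (SE 0.045). Mrpl11, at the base of the stalk that carries Mrpl12, differed by -0.17 (SE 0.051, limma adjusted p 0.102), and Mrpl41, a large subunit protein specific to mitochondria, by -0.18 (SE 0.069). None of these passed the adjusted threshold with stratum terms.

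The 3 genes of the Mrps18 family encode paralogues that sit in different places of the mitoribosome. Mrps18c differed by -0.24 (SE 0.071), Mrps18b of the small subunit by -0.14 (SE 0.048) and Mrps18a, whose product lies in the large subunit, by -0.13 (SE 0.048). The 95% intervals were -0.40 to -0.08 for Mrps18c, -0.25 to -0.03 for Mrps18b and -0.23 to -0.02 for Mrps18a, so the 3 were not separated from one another by their errors, and the differences between them were not tested. All 3 had every transgene library below every control library. With the trend on transcript length described below taken out, the values were -0.10 for Mrps18c, -0.022 for Mrps18b and 0.0067 for Mrps18a.

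Levels within the family spanned a wide range that had no clear relation to the differences. Per kilobase of the longest annotated coding transcript, mean log2 levels ran from 6.98 for Mrps25 to 12.84 for Mrpl42, with a median of 9.71 over the family and 7.56 over all tested genes. Mrpl42, with the highest mean log2 value before division by length (12.25), differed by -0.18 (SE 0.078), with 12.02 to 12.30 in transgene libraries and 12.19 to 12.41 in control libraries. Mrpl51, next by that value after Mrpl42 and Mrpl12, differed by -0.09 (SE 0.071). The lowest mean log2 values were those of Mrps6 (8.72), Mrpl22 (8.91) and Mrpl47 (9.01), whose differences were -0.08 (SE 0.067), -0.15 (SE 0.059) and -0.11 (SE 0.094). Across the 76 genes the Pearson correlation of difference and mean log2 level was -0.012, a description over genes that share the same libraries.

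The negative differences stood mainly in stratum 2, and in stratum 1 the family was near 0. In these linked values, a gene's overall difference and its stratum 1 difference together fix its stratum 2 difference. The contrast between the strata therefore restates how far the libraries of stratum 1 depart from their group means. It is not a separate observation. In stratum 2, with 3 transgene and 2 control libraries, 75 of the 76 genes were lower and the median difference was -0.19. In stratum 1, with 1 library per group, 30 genes were lower and the median was 0.02. Among all tested genes the medians were 0.0074 in stratum 2 and -0.0066 in stratum 1. By the transcript lengths described below, other short genes were also lower mainly in stratum 2. Others of 501 to 1000 bases had medians of -0.21 in stratum 2 and -0.024 in stratum 1. Others of 1001 to 1500 bases had -0.13 and -0.015. From 3001 to 5000 bases the others had 0.04 in stratum 2, against -0.19 for the family. Mrpl54 differed by -0.39 in stratum 2 and -0.03 in stratum 1, and Mrps24 by -0.38 and -0.02. Mrpl33, counterpart of bacterial L33, went furthest apart, with 10.31, 10.25 and 10.20 in transgene replicates 2 to 4 against 10.48 and 10.57 in control replicates 2 and 3, but 10.49 in transgene replicate 1 against 10.26 in control replicate 1. Mrpl16 and Mrps30 were lower in both strata: Mrpl16 differed by -0.10 in stratum 2 and -0.16 in stratum 1, and Mrps30 by -0.19 and -0.13. These 3 genes were named after their values were seen.

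**Figure D3:**
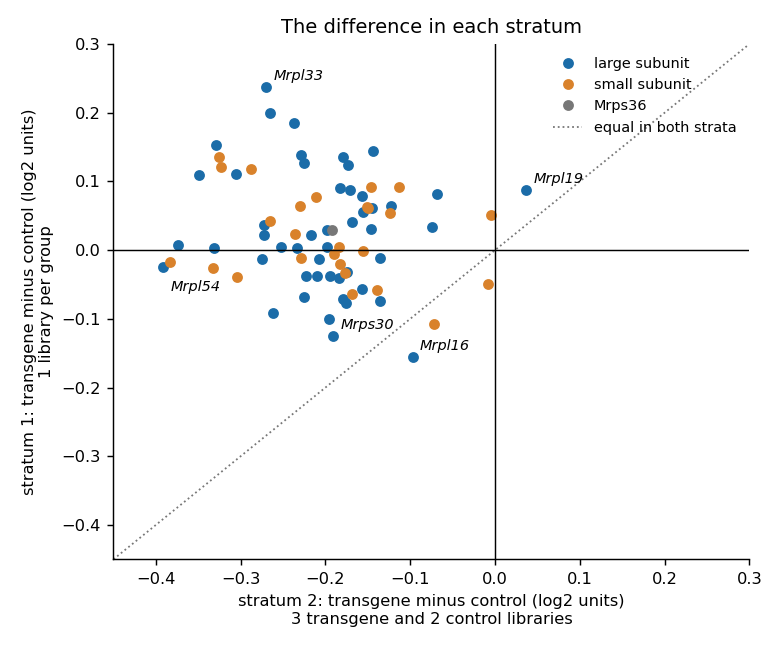
Each point is 1 of the 76 genes, with its difference (transgene minus control, log2 units) in stratum 2 on the horizontal axis and in stratum 1 on the vertical axis; the dotted line marks equal differences. The cloud lies left of 0 for 75 genes and is spread on both sides of 0 on the vertical axis, where 30 genes are negative.

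A term for the difference between strata was added to the limma fit after the data were seen. This term restates the same departure of the stratum 1 libraries and adds no separate observation. The term was negative, with the lower difference in stratum 2, for 73 of 76 genes, and its median was -0.21. At an unadjusted p under 0.05 it held 34 genes of the family, against 16.6% of all tested genes, and after adjustment 0 genes of the family and 23 of all tested genes. At the same unadjusted threshold it held 64 of 81 nuclear genes for the respiratory chain and ATP synthase. It also held 51 of 80 cytosolic ribosomal protein genes. Within stratum 2 alone, limma called 14 genes of the family lower, against 2.76% of all tested genes, among them Mrpl12 (adjusted p 0.0301), Mrps24 (0.0322), Mrpl54 (0.0335) and Mrps26 (0.0372). With stratum terms kept, leaving out transgene replicate 1 gave 36 genes called lower, against 6.54% of all tested genes. Leaving out control replicate 1 gave 36 as well, against 6.57%. These are not separate results, because the library left in stratum 1 is taken up by its own stratum term. Both fits rest on strata 2 and 3, with the same median difference of -0.19 for the family. Each of the other libraries left out in turn gave 0. Of all 14490 tested genes, these fits called 177 lower without transgene replicate 4 and only 0 to 22 in the rest. Where so few genes were called in the whole table, a count of 0 says little about the family. Stratum 1 rests on 1 library per group, and biological and technical differences between those libraries cannot be told apart.

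Summed levels of some cell type markers differed between the same strata. The log2 of the summed level of 6 fibroblast markers was 16.58 to 16.89 in transgene libraries and 16.21 to 16.60 in control libraries, higher by 0.35 in stratum 2 and by 0.0038 in stratum 1. The summed level of 5 endothelial markers was 13.38 to 13.69 in transgene libraries and 13.09 to 13.43 in control libraries, with differences of 0.30 in stratum 2 and -0.05 in stratum 1. The summed level of 12 skeletal muscle markers was 20.45 to 20.58 in transgene libraries and 20.41 to 20.56 in control libraries, and that of 9 keratinocyte markers was 19.68 to 20.10 in transgene libraries and 19.76 to 20.16 in control libraries. The sum of 4 salivary gland markers did not overlap between the groups, at 10.12 to 10.48 in transgene libraries and 10.03 to 10.11 in control libraries, with differences of 0.20 in stratum 2 and 0.05 in stratum 1. The sum of 4 Schwann cell markers was 13.42 to 13.61 in transgene libraries and 13.29 to 13.61 in control libraries, with differences of 0.16 in stratum 2 and -0.18 in stratum 1. The sum of 5 leukocyte markers was 12.36 to 12.44 in transgene libraries and 12.24 to 12.37 in control libraries, and 1 of them, Csf1r, a receptor of macrophages, was the only listed marker called in limma with stratum terms (0.27 higher, SE 0.048, adjusted p 0.0418). Sums of adipocyte and brown adipocyte markers overlapped between the groups. The summed muscle markers differed by 0.04 in stratum 2 and 0.10 in stratum 1, and the summed keratinocyte markers by 0.11 and -0.48. A sum rests mostly on its most abundant genes. The median difference over the 12 muscle markers was -0.05, with -0.10 in stratum 2 and 0.05 in stratum 1. Over the 9 keratinocyte markers the median was -0.04, with 0.08 in stratum 2 and -0.37 in stratum 1. None of the listed markers was at 0 in every library, and Lep, Ucp1 and Cd3e lay under the floor. The part of cell makeup in the differences of the mitoribosome genes was not tested.

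Transcript length moved with the difference across the whole table. Over all tested genes with a length, the Pearson correlation of the difference with log2 length was 0.58, and over the 76 genes of the family it was 0.35, both descriptions over genes that share the 9 libraries. Lengths are those of the longest coding transcript in GENCODE release M21, and the family is short, with a median of 1302 bases against 3138.5 for all tested genes. Among genes of 501 to 1000 bases, the 21 of the family had a median difference of -0.17 and the 647 others had -0.15. From 1001 to 1500 bases the 22 of the family had -0.13 and the 1244 others had -0.10. In these bins the family lay near other genes of its length.

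Longer members lay below the median of other genes of their length. From 2001 to 3000 bases the 6 of the family had a median of -0.11 and the 3206 others -0.02, and from 3001 to 5000 bases the 14 of the family had -0.12 and the 4568 others 0.02. Over 5000 bases the 3 genes of the family, Mrpl17, Mrps25 and Mrps17, had -0.12 and the 3059 others 0.11. Mrps26, annotated at 4278 bases, and Mrpl15, annotated at 4203 bases, had differences of -0.23 and -0.16. The longest annotated transcript can be a minor one: the median coding transcript was 1894 bases for Mrpl15 and 743.5 bases for Mrpl17, whose longest has 7300 bases. These comparisons between the family and other genes were not tested.

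With a smooth trend on length taken out of every library, the median difference of the family was -0.049, 58 of 76 genes were negative, and limma with stratum terms called 0 of them, with 14 lower at an unadjusted p under 0.05 against 8.12% of all genes with a length. In that fit 1 gene of the whole table was called. The group-only fit then called 13 genes of the family lower, against 6.82% of all genes, among them Mrps26 (-0.26, adjusted p 0.00960), Mrpl15 (-0.19, adjusted p 0.00764) and Mrpl12 (-0.14, adjusted p 0.0320). Mrpl54 was then at -0.12 and Mrpl52 at -0.07. With the median coding transcript as the length, an alternative added after the data were seen, the median was -0.081, 71 genes were negative, and the group-only fit called 16 lower, against 8.85% of all genes with a length. With the longest transcript as the length, the sign turned in 7 of the genes described above, Mrpl19, Mrps31, Mrpl45, Mrps6, Mrpl22, Mrps22 and Mrps18a.

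**Figure D4:**
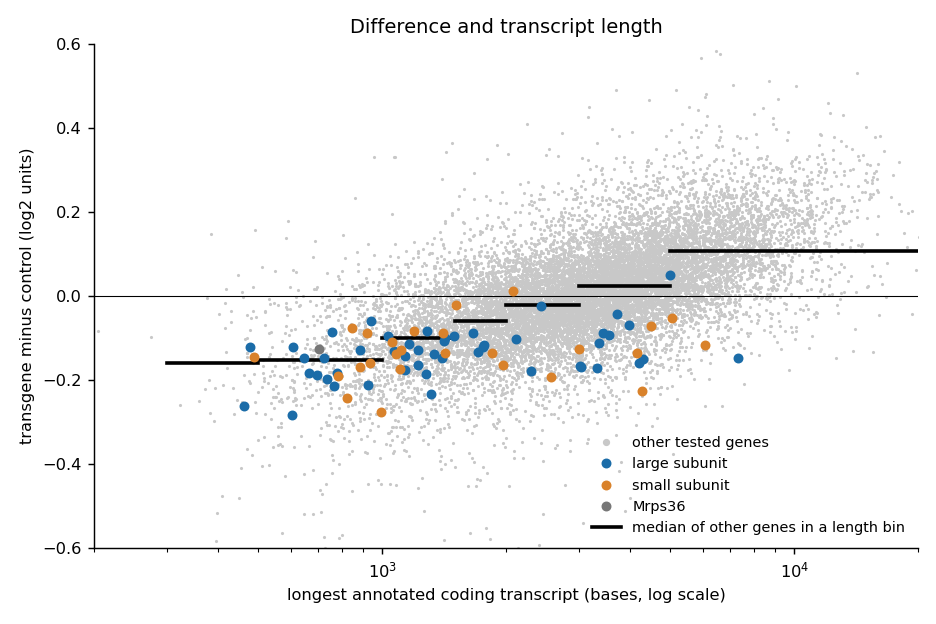
Difference (transgene minus control, log2 units) against the longest annotated coding transcript (bases, log scale) for the family (coloured by subunit) and for other tested genes (grey), with black lines for the median of the other genes in each length bin. The family lies near the black lines up to 1500 bases and mostly below them beyond 2000 bases; the vertical axis is limited to 0.6 either side of 0.

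Several mitoribosome genes share a promoter region with a gene read in the other direction, so each such pair compares genes in 1 place of the genome. A neighbour on the opposite strand whose start lay within 1000 bases was found for 17 genes of the family, at 26 to 935 bases. The family members of these pairs had a median difference of -0.13 and the 17 partners -0.01, and the family member was the more negative in 15 of 17 pairs. The family members were also shorter, with a median of 1498 bases against 2911 for the partners. The pairs described were chosen after their values were seen. Mrps12 differed by -0.17 (SE 0.105) while its partner Sars2, the mitochondrial serine tRNA synthetase, differed by 0.10 (SE 0.057). Mrps18c differed by -0.24 and its partner Helq, a DNA helicase, by 0.02 (SE 0.057), and Mrpl54 by -0.28 and its partner Apba3, an adaptor protein, by -0.03 (SE 0.057).

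In other pairs the partner was as low as the mitoribosome gene or lower. Mrpl32 differed by -0.17 and Psma2, a proteasome subunit, by -0.16 (SE 0.048). Mrpl49 differed by -0.12 (SE 0.045), while Fau, which encodes a precursor of a cytosolic small subunit protein, fell by 0.31 (SE 0.059, limma adjusted p 0.0431) and was the only one of the 17 partners called with stratum terms. Over all tested genes, 1.15% were called lower in that fit. In addition, 41 of the 76 genes overlap another annotated gene. The authors' libraries were stranded, but no source used here says whether strand was used in counting. The median difference was -0.14 over these 41 genes and -0.13 over the 35 that overlap none. For Mrpl23, Mrpl27, Mrpl48 and Mrps36, whose RefSeq entries include a pseudogene of the same name, reads of near-identical copies could have been split or lost, so their values are uncertain.

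Subunits of the mitoribosome known under other symbols had mostly the same sign. Of 7 such genes, 6 were negative with a median of -0.17 and 0 were called in limma with stratum terms. At an unadjusted p under 0.05, 4 were lower, against 11.8% of all tested genes. Aurkaip1 differed by -0.20 (SE 0.05, adjusted p 0.0694), Chchd1 by -0.25 (SE 0.11), Gadd45gip1 by -0.17 (SE 0.06) and Dap3, a GTP-binding small subunit protein, by -0.09 (SE 0.05). Ptcd3, a small subunit protein with RNA-binding repeats, differed by 0.0034.

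Genes that build, charge or regulate the mitoribosome were mixed. Of 25 assembly genes, 0 were called in limma with stratum terms and 5 were lower at an unadjusted p under 0.05, while the group-only fit called 5 lower and 0 higher. Over all tested genes, 1.15% were called lower with stratum terms and 11.8% were lower at an unadjusted p under 0.05. The group-only fit called 12.7% lower. The lists in this paragraph were not tested against these shares. The median was -0.045. The most negative were Malsu1, which keeps the large subunit from joining too early, at -0.27 (SE 0.08), Rbfa, a small subunit maturation factor, at -0.21 (SE 0.05), and Mpv17l2 at -0.19 (SE 0.05). Of 12 translation factors, 0 were called in limma with stratum terms, 1 was lower at an unadjusted p under 0.05 and the median was 0.0081, with Mtif3, an initiation factor, at -0.15 (SE 0.05), and the elongation factor Tufm at 0.04. Of 20 aminoacyl-tRNA synthetase genes and related subunits, 0 were called in limma with stratum terms, 3 were lower at an unadjusted p under 0.05 and the median was -0.047. The widest value was that of Lars2, the leucine enzyme, at -0.51 (SE 0.20), with -0.17 in stratum 2 and -1.33 in stratum 1. Its mean log2 level, 16.65 in transgene and 17.16 in control libraries, was far above the rest of this list. The next highest, Iars2, was at 11.51 and 11.52. Whether the Lars2 value stands for messages of the enzyme is uncertain and was not tested.

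Of 11 genes for the upkeep and transcription of mitochondrial DNA, 0 were called in limma with stratum terms, and the median was -0.044. At an unadjusted p under 0.05, 2 were lower and 1 higher, against 11.8% and 11.2% of all tested genes. The mitochondrial RNA polymerase Polrmt was at 0.11 (SE 0.06) and Tfam at -0.06 (SE 0.06). Lrpprc and Slirp, whose products form a complex that stabilises mitochondrial messages, differed by 0.17 (SE 0.05) and -0.24 (SE 0.07). Among 10 nuclear regulators 1 was called lower with stratum terms and 0 higher, against 1.15% and 0.511% of all tested genes. The gene called was Myc, a transcription factor that drives ribosome production. It fell by 0.34 (SE 0.06, limma adjusted p 0.0427), with -0.28 in stratum 2 and -0.48 in stratum 1. At an unadjusted p under 0.05, 2 of the 10 were lower and 3 higher, against 11.8% and 11.2% of all tested genes. Esrra was at -0.17 (SE 0.07) and Gabpb2 at 0.13 (SE 0.06). The regulators whose motifs are marked above were close to 0 or higher, Nrf1 at -0.03 (SE 0.05), Yy1 at 0.03 (SE 0.05) and Gabpa at 0.12 (SE 0.05). Ppargc1a, a coactivator of mitochondrial genes, was at 0.36 (SE 0.14, adjusted p 0.163).

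A pair of larger modules with short transcripts, set beside the family for comparison, had the same sign. Of 80 tested cytosolic ribosomal protein genes, 79 were negative and the median was -0.28. Limma with stratum terms called 34 of them lower, against 1.15% of all tested genes. Rpl30, Rps27 and Rpl34 lay just over the floor, at 3.26, 3.18 and 3.81 in transgene libraries, against a median level of 13.51 for the list. Their differences of -0.02, 0.0093 and -0.0030 therefore say little, and Rps27 was the gene that was not negative. Of 81 tested nuclear genes for the respiratory chain and ATP synthase, 77 were negative, the median was -0.16 and 1 was called lower, Cox6a1, a subunit of cytochrome c oxidase (-0.25, adjusted p 0.0498). In stratum 2 the median was -0.19 for the mitoribosome genes, -0.26 for the respiratory chain and -0.38 for the cytosolic ribosomal proteins. In stratum 1 it was 0.02 for the mitoribosome genes, 0.06 for the respiratory chain and -0.09 for the cytosolic ribosomal proteins. After removal of the length trend it was -0.049 for the mitoribosome genes (median length 1302 bases), -0.025 for the respiratory chain (875 bases) and -0.17 for the cytosolic ribosomal proteins (941.5 bases). Differences between these modules were not tested.

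**Figure D5:**
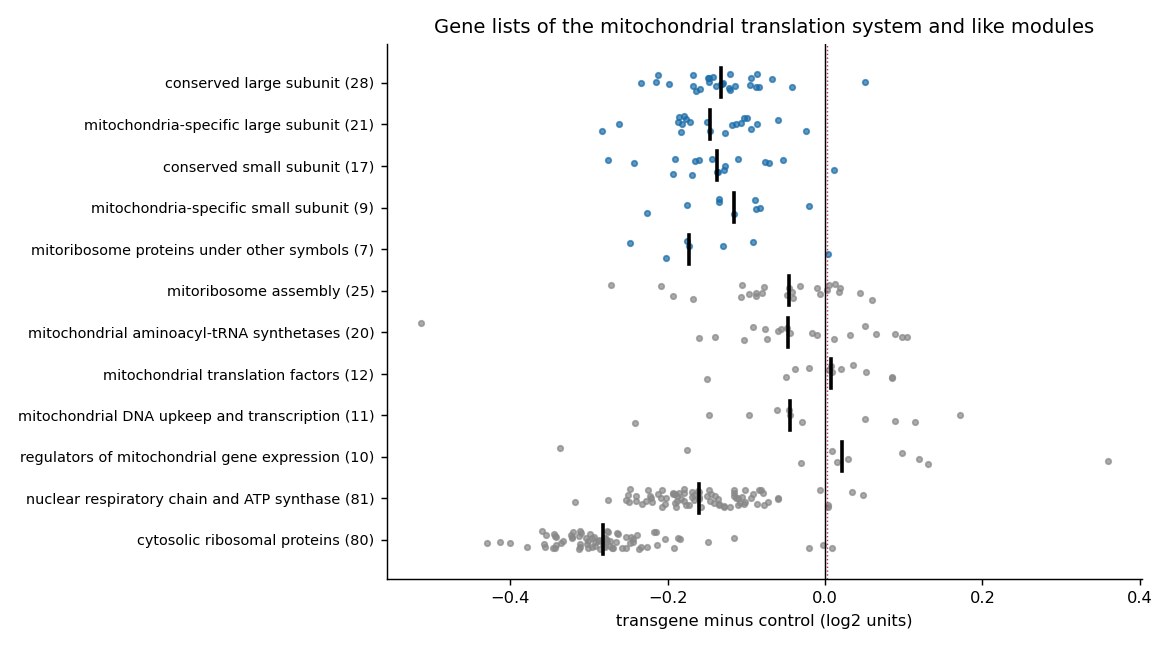
Differences (transgene minus control, log2 units, horizontal axis) of single genes in each list, with the number tested in brackets, a black bar at the median of the list and a dotted line at the median of all tested genes; vertical scatter within a list has no meaning. The 4 mitoribosome lists (top, blue) and the subunits under other symbols have medians between -0.17 and -0.12, translation factors lie about 0, and cytosolic ribosomal proteins lie lowest, at -0.28.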

How the data were processed

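The expression table that the authors deposited gives log2 normalized values of 20512 gene symbols in 9 libraries. TopHat2, HTSeq, DESeq2 and the build mm9 are named in the submitters' processing notes without versions or order. The authors also deposited a table of 981 genes with log2 fold changes, p-values and adjusted p-values, quoted as theirs. Library depth is unknown. A row without a gene name and 3064 genes at exactly 0 everywhere were left out, and so were genes with a mean log2 value under 3. Such values can be shrunk toward the mean, so small differences of low genes may be understated.

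Strata were found as the 1 partition of 3003 tried that left no variation between sets beyond the group means. Limma 3.58.1 in R 4.3.3 was fitted with group and stratum (5 residual degrees of freedom), an intensity trend and two-sided p-values with Benjamini-Hochberg adjustment over 14490 genes; the code was tested on simulated data. Transcript lengths, neighbours and overlaps came from GENCODE M21 (GRCm38), matched by symbol, and the length trend was a lowess fit with a span of 0.3. Genes were named by a rule: the 8 smallest p-values, the 4 largest differences in each direction, the 3 highest and 3 lowest levels, members with well known roles, and those in the authors' table. The genes and lists were chosen with earlier results of these data known. Replicates were numbered in accession order and pair no libraries.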

Additional observations from a re-analysis of the deposited data

Results flagged for a closer look

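The 27 genes of the family named by the rule and the mean over the 76 genes were checked in each group for a library far from the others of its group (56 groups), and 2 were marked; chance marks about 1 in 20. Mrpl52 had its highest transgene library, replicate 1, at 9.735, against 9.541 to 9.569 in the other transgene libraries. Mrpl15 had its highest transgene library, replicate 1, at 10.89, against 10.81 in each of the others. Both values stand in stratum 1, in which the control library was also the lowest of its group. That is not a separate observation. Transgene and control replicate 1 depart from their group means by equal and opposite amounts in these values. What sets these libraries apart was not tested.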

How the results depend on the processing

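No gene of the family was called by limma with stratum terms, with no floor, with a floor of 5, without the intensity trend, with library medians centred, or with the length trend taken out under either length (14 and 18 lower at an unadjusted p under 0.05). The number called lower was 42 in the group-only fit, against 12.7% of all tested genes. It was 13 in that fit with the length trend taken out (against 6.82%). With the median coding transcript as length (added after seeing the data) it was 16 (against 8.85%). It was 14 in stratum 2 alone (against 2.76%) and 6 in the authors' deposited table (against 2.69% of all symbols). With 1 library left out it was 0 to 36, the 36 arising when either library of stratum 1 was left out. The number called higher stayed at 0. The cause of the spread in these counts was not tested. The median difference of the family, -0.13, was -0.049 with the length trend taken out (in both fits), -0.19 in stratum 2, 0.022 in stratum 1 and -0.19 to -0.11 with 1 library left out. For the 47 Mrpl symbols it was -0.056 and -0.057 with the length trend taken out (stratum terms and group-only), -0.198 in stratum 2, 0.030 in stratum 1 and -0.198 to -0.109 with 1 library left out. For the 29 Mrps symbols it was -0.046 in both fits with the trend taken out, 0.0046 in stratum 1 and -0.184 to -0.111 with 1 library left out. Other mitochondrial translation genes had a median of -0.038, with 0.041 in stratum 1 and -0.067 to -0.011 with 1 library left out. Bmi1 was called in the group-only fit at 2.442, at 2.428 with the length trend taken out and at 2.512 with the median coding transcript, and ran from 1.766 to 2.741 with 1 library left out.

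Signs turned for some genes. With the length trend taken out (stratum terms, then group-only) Mrpl19 was at -0.0064 and -0.0072, Mrps31 at 0.0576 and 0.0576, Mrpl45 at 0.0049 and 0.0047, Mrps6 at 0.0614 and 0.0616, Mrpl22 at 0.0028 and 0.0030, Mrps22 at 0.0215 and 0.0219, and Mrps18a at 0.0067 and 0.0069. With the median coding transcript Mrpl19 was at -0.0293 and -0.0304, Mrps31 at 0.0202 and 0.0200 and Mrpl45 at 0.0197 and 0.0194. Mrps2 was at -0.0047 in stratum 2 alone. With 1 library left out, Mrps2 ran from -0.0047 to 0.024, Mrps31 from -0.039 to 0.0053 and Mrpl45 from -0.068 to 0.0055. No paired analysis was possible because replicate numbers follow accession order and pair no libraries between the groups.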
